A study of Caenorhabditis elegans with 2 samples.

Results

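The Wnt beta-catenin and asymmetry pathway genes described here are mom-1, mom-2, apr-1, pry-1, bar-1, wrm-1, sys-1, hmp-2, lit-1 and pop-1, 10 of 19973 nuclear protein-coding genes, each found once by name in the annotation. They were examined for binding of CEH-28, an NK-2 type homeobox factor best known for its work in M4, a motor neuron of the pharynx, by chromatin immunoprecipitation and sequencing (ChIP-seq) in Caenorhabditis elegans. The 2 samples are biological replicates of 1 group: whole L3 larvae of strain OP241, of unknown age and with males and females pooled, with the integrated transgene wgIs241 that carries eGFP-tagged ceh-28, in a background with the unc-119 mutation ed3, and control reads entered the peak calls. No group without the tag was analysed here, so there is no comparison of conditions. A peak was read where it overlapped the gene body or the 2000 bp to either side, in a thresholded list of 3531 peaks and in relaxed lists of 30000 peaks each for the pooled replicates, replicate 1 and replicate 2. In whole larvae, strong binding in few cells and weak binding in many cannot be told apart.

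Wnt proteins are secreted signals that set cell fate and the polarity of dividing cells, and in the worm they act through related branches. In one, the beta-catenin BAR-1 is held down by a complex with the scaffold PRY-1, related to Axin, and APR-1, related to APC, until a signal releases it to join the TCF factor POP-1. In the other, known as the asymmetry pathway, the beta-catenin WRM-1 and the kinase LIT-1 lower POP-1 in the nucleus of one daughter cell, while the beta-catenin SYS-1 serves POP-1 as a coactivator. MOM-1 belongs to the Porcupine family, which is needed to make Wnt proteins ready for secretion, MOM-2 is a Wnt ligand, and HMP-2 is the beta-catenin of the adherens junction.

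Among the Wnt genes, 5 of 10 had a thresholded peak, and together these held 8 such peaks. These genes were mom-1, wrm-1, sys-1, hmp-2 and lit-1, and the genes without were mom-2, apr-1, pry-1, bar-1 and pop-1. By the same rule 22.5% of all protein-coding genes were called. Windows were long, from 6.20 to 26.4 kb with a median of 8.96 kb, against a median of 6.03 kb over all genes, and a longer window can hold more peaks. Among the genes with windows of 6 to 10 kb, 4 of the 7 described here were called, against 24.6% of all genes of that size. Of the 3 with longer windows, 1 was called, lit-1, against 38.1% of all such genes. The windows of 3 genes, mom-1, sys-1 and lit-1, each held 2 thresholded peaks, and 5.72% of all genes had 2 or more. With 10 genes chosen with earlier results of these data known, these shares are descriptions and no test was made. A summit, the highest point of a peak, lay within 1000 bp upstream to 200 bp downstream of an annotated 5' end for 4 of the 10 genes, namely mom-1, wrm-1, sys-1 and lit-1, and for 11.2% of all protein-coding genes.

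**Figure D1:**
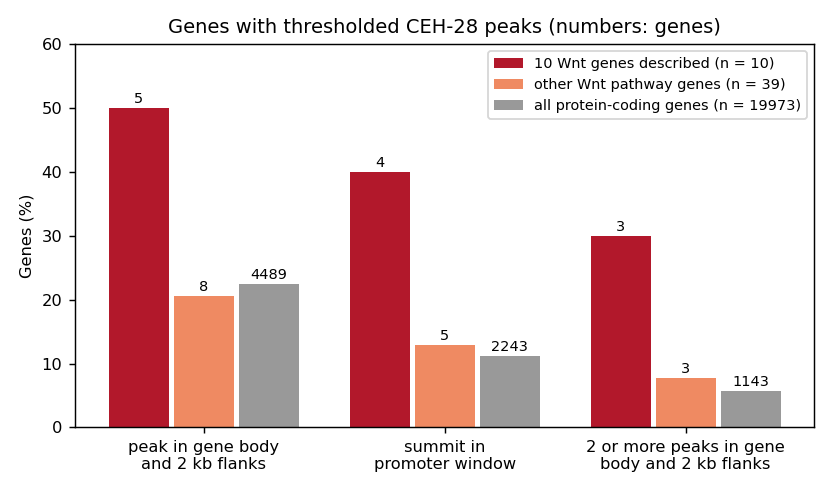
Share of genes (y axis, percent) with a thresholded peak in the gene body and 2 kb flanks, with a summit in a promoter window, and with 2 or more peaks, for the 10 Wnt genes, 39 other Wnt pathway genes and all 19973 protein-coding genes; the number of genes stands on each bar. The 10 genes reached 5, 4 and 3 genes under the 3 rules, against 8, 5 and 3 of the 39 others.

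The called genes were of several roles. Of the 4 beta-catenin genes, 3 were called, wrm-1, sys-1 and hmp-2, and bar-1 was not. All 4 have windows of 6 to 10 kb, where 24.6% of all genes were called. Groups this small cannot be compared by role. The kinase gene lit-1 and the secretion gene mom-1 were called, whereas the ligand gene mom-2, both scaffold genes of the destruction complex, apr-1 and pry-1, and the TCF gene pop-1 were not. Among the 8 peaks, 4 had one of the gene's own 5' ends as the nearest of all protein-coding genes, the single peak of wrm-1, the weaker of sys-1 and both of lit-1, and 4 lay nearer to another gene. For sys-1 and hmp-2 the strongest peaks lay just upstream of a neighbour.

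**Figure D2:**
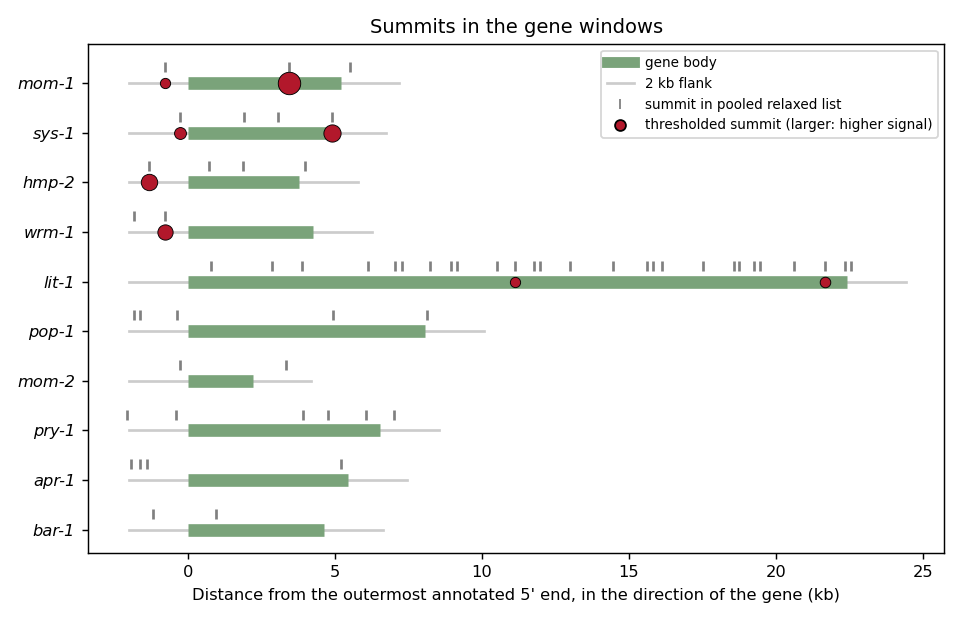
Gene bodies (green) with 2 kb flanks (grey line) of the 10 genes, aligned at the outermost annotated 5' end and drawn in the direction of the gene (x axis, kb). Red circles are the 8 thresholded summits, larger for higher signal, and grey ticks are summits of the pooled relaxed list, of which lit-1 has 27.

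The strongest peak by far was in mom-1, which spans 6293112 to 6298305 on the plus strand of chromosome X in build ce11, used throughout. It lay from 6296261 to 6296937, with a signal of 1642, which ranked 19 of 3531 thresholded peaks and 10 of the 550 on X. Signal is the peak caller's own value, here as the authors deposited it, and serves only to rank peaks within a list. In replicate 1 the peak had a signal of 926 and rank 24, and in replicate 2 a signal of 725 and rank 13, each among 30000 peaks. Both replicates therefore placed it near the top, with summits 1 bp and 7 bp from the pooled one. The summit was intronic, 69 bp past the end of exon 7 of 8, in an intron of 1299 bp, and 3450 bp downstream of the only annotated 5' end of mom-1. The nearest 5' end of any protein-coding gene was that of cest-16, 3380 bp away. Each replicate list also resolved a second, weaker summit in the same interval. It lay 204 bp from the thresholded summit in replicate 1 (signal 45.7, rank 2611) and 192 bp in replicate 2 (signal 80.3, rank 951).

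The mom-1 sequence is shown because it carries matches to 2 sequences that were more frequent at CEH-28 summits than beside them. Below it, wrm-1 and lit-1 are shown for the matches at their own peaks. Each is given 5' to 3' on the plus strand of ce11, which is the strand of all these genes, with matches in capitals, and none overlaps a coding exon or UTR. The motifs searched on both strands were AATCGAT and the related AATCAAT, the sequence CTGCGTC, the longer GCGCAGGG, and the NK-2 class sequences TCAAGTG and TTAAGTG.
mom-1 intron, chrX:6296502-6296801, summit at base 61: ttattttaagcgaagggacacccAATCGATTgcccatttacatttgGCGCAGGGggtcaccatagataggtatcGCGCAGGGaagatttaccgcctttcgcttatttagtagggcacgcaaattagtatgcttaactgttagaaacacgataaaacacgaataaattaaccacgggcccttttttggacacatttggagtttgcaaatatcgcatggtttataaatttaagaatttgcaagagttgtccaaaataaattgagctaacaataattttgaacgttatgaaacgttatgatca
wrm-1 upstream, chrIII:5721954-5722154, summit at base 101: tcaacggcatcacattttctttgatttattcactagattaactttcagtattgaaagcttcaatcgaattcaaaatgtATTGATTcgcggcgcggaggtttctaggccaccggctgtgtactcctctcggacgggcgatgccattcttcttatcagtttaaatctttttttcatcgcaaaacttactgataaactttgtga
lit-1 intron, chrIII:13713024-13713224, summit at base 101: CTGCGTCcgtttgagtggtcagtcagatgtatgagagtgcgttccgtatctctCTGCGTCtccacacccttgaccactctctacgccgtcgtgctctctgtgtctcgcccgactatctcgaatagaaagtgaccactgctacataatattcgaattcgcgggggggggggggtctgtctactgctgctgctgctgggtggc

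At the mom-1 summit GCGCAGGG occurred on the plus strand 2 times, with 20 bases between the copies and the summit lying between them. GCGCAGGG is the core of a motif known from sites on X that recruit the dosage compensation complex. Upstream of both copies, 30 bp from the summit, stood AATCGATT, which holds AATCGAT on both strands, so that its 2 overlapping matches are 1 site. AATCGAT and AATCAAT are of the type bound by ONECUT homeodomain proteins. Within 50 bp of the summit GCGCAGGG occurred at 0.453% of all thresholded peaks and in 0.0566% of flanking windows centred 500 bp away. All 16 of these peaks were on X, where 2.91% of the 550 thresholded peaks and 0.0909% of their flanking windows had it, against 0 of 2981 peaks on the autosomes. Within 200 bp, 6 of 3531 peaks had 2 or more copies. The mom-1 peak was among the strong X peaks that had drawn attention to this sequence, so its presence there is no independent evidence.

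The second thresholded peak of mom-1 was weak and lay at a tRNA gene. Its interval, 6292134 to 6292533 on X, had a signal of 72.1 (rank 3131), 30.4 in replicate 1 (rank 4649) and 41.0 in replicate 2 (rank 2620). Its summit fell 778 bp upstream of mom-1 inside the tRNA gene WBGene00023133, which spans 6292278 to 6292349. It was also 602 bp upstream of lev-9, a gene on the other strand whose 5' end is separated from mom-1 by 1379 bp. None of the motifs lay within 200 bp of this summit. Both mom-1 peaks lay above the list's lowest signal, 65.9, the strong one far above and the weak one close to it.

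Among the beta-catenin genes, wrm-1 had the peak most plainly its own. The gene spans 5722850 to 5727115 on the plus strand. It covered 5721854 to 5722253 on chromosome III, with a signal of 197 (rank 800), and its summit was 796 bp upstream of the first annotated 5' end of wrm-1 in intergenic sequence. Replicate 1 gave a signal of 101 (rank 895) and replicate 2 one of 98.9 (rank 698), with summits 2 bp and 1 bp from the pooled one. No window of another protein-coding gene held this peak. A single AATCAAT lay 16 bp from the summit on the minus strand, printed above as ATTGATT. Over all thresholded peaks 24.9% had AATCAAT within 50 bp of the summit, against 7.02% of flanking windows.

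The gene sys-1, from 9980063 to 9984794 on the minus strand, had a peak at each end. The weaker one lay at its start, from 9984861 to 9985260 on chromosome I, with a signal of 95.6 (rank 2100) and a summit 267 bp upstream of the outermost 5' end. Replicate 2 had it with a signal of 53.5 (rank 1746). Replicate 1 resolved it into 2 summits with signals of 44.8 (rank 2686) and 40.7 (rank 3080), the stronger 177 bp from the pooled summit and the other 25 bp from it. This was the only one of the 8 peaks whose best replicate summit lay more than 40 bp from the pooled one. The stronger peak, from 9979789 to 9980033, had a signal of 324 (rank 380), 204 in replicate 1 (rank 349) and 122 in replicate 2 (rank 481). It lay 159 bp beyond the 3' end of sys-1 and 242 bp upstream of eif-3.C, which encodes a subunit of a translation initiation factor and follows sys-1 on the same strand after 400 bp. The call of sys-1 thus rests on its own start with the weaker peak and on the neighbour's start with the stronger.

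The peak called for hmp-2, which spans 14738882 to 14742671 on the plus strand, also lay at a neighbour's start. It covered 14737424 to 14737627 on chromosome I, with a signal of 262 (rank 520), 149 in replicate 1 (rank 539) and 113 in replicate 2 (rank 547). Its summit was 137 bp upstream of K05C4.7 and 1317 bp upstream of hmp-2. K05C4.7 lies between the peak and hmp-2 on the same strand, and only 85 bp separate the genes. Near the 5' ends of hmp-2 itself the strongest relaxed peak had a signal of 24.0 (rank 15195), 13 bp downstream of the inner one. AATCGAT lay 9 bp from the thresholded summit, and it occurred within 50 bp of 35.3% of all thresholded summits and in 6.94% of flanking windows.

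The fourth beta-catenin gene, bar-1, had the lowest signal of the 10 genes. It spans 7166005 to 7170625 on the minus strand of chromosome X. Its strongest pooled peak, 1190 bp upstream, had a signal of 22.2 and rank 17183 of 30000. Replicate 1 held 1 peak in the window, with a signal of 13.3 (rank 17055), and replicate 2 held 1, with 13.0 (rank 16213), and they were at different places. Neither of the 2 pooled peaks at bar-1 had a partner in both replicate lists, where 60.6% of all pooled peaks had one.

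**Figure D3:**
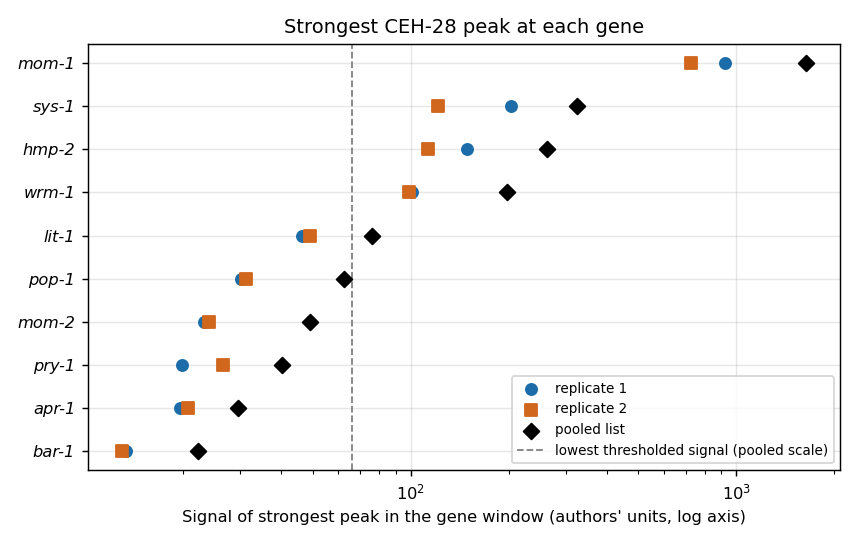
Signal of the strongest peak in each gene window (x axis, authors' units, log scale) in the replicate 1, replicate 2 and pooled relaxed lists, for the 10 genes from high to low; the dashed line is the lowest thresholded signal, 65.9, on the pooled scale. The order is the same in both replicates except that mom-2 and pry-1 change places, and signals of different lists are not on one scale.

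The order of the genes by their strongest peak was nearly the same in the replicates. From high to low the pooled list gave mom-1, sys-1, hmp-2, wrm-1, lit-1, pop-1, mom-2, pry-1, apr-1 and bar-1, and replicate 1 gave this order too. In replicate 2 mom-2 and pry-1 changed places, with signals of 23.9 for mom-2 and 26.5 for pry-1, against 23.1 and 19.8 in replicate 1, so these neighbours cannot be ranked. Spearman's rho between the replicates was 0.988 over the 10 genes, as a description of points that share both libraries. The strongest peak lay more than 200 bp from that of the pooled list for lit-1 and apr-1 in replicate 1 and for bar-1 in replicate 2. For these 3 genes the order thus compares windows and not the same site. In rank, sys-1 and hmp-2 were the closest pair (ranks 380 and 520), and wrm-1 was next to them at 800. Of the 8 thresholded peaks, 5 overlapped a strong peak of each replicate, strong meaning among its 3531 highest, as did 73.7% of all thresholded peaks. The other 3 were the weak peak of mom-1 and both peaks of lit-1, each strong in 1 replicate.

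lit-1, the gene of the Nemo-like kinase that acts with WRM-1, had 2 weak thresholded peaks and many still weaker ones. It is the longest of the genes, from 13701991 to 13724404 on the plus strand. The first, from 13712924 to 13713323 on chromosome III, had a signal of 72.1 (rank 3128), 46.4 in replicate 1 (rank 2557) and 29.2 in replicate 2 (rank 4457). It lay in intronic sequence, in a stretch of 11798 bp between annotated exons of lit-1. That stretch ends at an internal 5' end, 1 of 7 annotated ends, so it need not be a single intron. The peak had its summit 921 bp upstream of this end and 11133 bp downstream of the outermost. CTGCGTC lay 41 bp from its summit, with another copy 94 bp away, and 8.55% of all thresholded summits had this sequence within 50 bp, against 0.793% of flanking windows. The other peak, from 13723472 to 13723871, lay in the 3' UTR and had a signal of 75.9 (rank 2929). In replicate 1 it had 26.8 (rank 5610) and in replicate 2 it had 49.1 (rank 1980). The replicates thus differed over which of the 2 was the stronger, the intronic one in replicate 1 and that in the UTR in replicate 2.

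**Figure D4:**
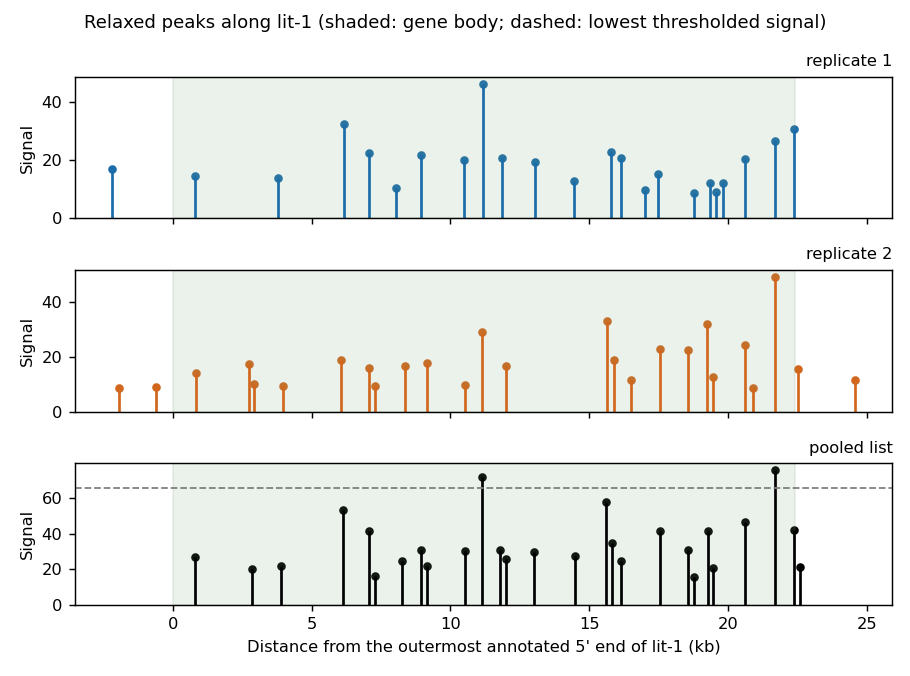
Signal (y axis, authors' units) of every relaxed peak in the lit-1 window against the distance of its summit from the outermost annotated 5' end (x axis, kb), for replicate 1, replicate 2 and the pooled list; shading is the gene body and the dashed line the lowest thresholded signal, 65.9. The pooled panel has 27 peaks, of which 26 have their summit in the gene body and 2 pass the line.

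The relaxed lists put many peaks along the whole of lit-1. The pooled list held 27 in its window of 26.4 kb, or 1.02 per kb, with a median signal of 30.6, and 22 of the summits were intronic. Replicate 1 held 23 (0.871 per kb) and replicate 2 held 26 (0.984 per kb). Of the 27 pooled peaks 24, or 88.9%, had a partner in both replicates, against 60.6% of all pooled peaks. An overlap of 1 bp was enough for a partner, and dense peaks meet this more easily. Over all protein-coding genes the median was 2 pooled peaks, or 0.236 per kb, and 11 of 19973 genes had 27 or more. Among the 152 genes with a window at least as long as that of lit-1 the median was 12, and 8 had 27 or more. In peaks per kb, 3.24% of all protein-coding genes reached the pooled value of lit-1. The gene lies 59.4 kb from the right end of chromosome III. The rest of the 50 kb to either side held 0.302 pooled summits per kb, close to 0.299 over the genome. Whether the number of peaks goes with the position on the chromosome was not tested. At the other 9 genes the pooled list held between 2 and 6 peaks. These low-ranking peaks came from lists of a fixed length, and most lay below the threshold of the authors' reproducibility analysis.

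pop-1, the TCF gene at the end of both branches (2822243 to 2830311, minus strand), came closest of the genes without a thresholded peak. Its strongest pooled peak, from 2831730 to 2832129 on chromosome I, had a signal of 62.3 and rank 3834, just under the lowest thresholded signal of 65.9, whereas the weakest peaks just above it here had 72.1. It was 1619 bp upstream of the only annotated 5' end, and no other protein-coding 5' end was nearer. A second pooled peak, 1820 bp upstream, had a signal of 42.6. Replicate 2 had a peak near each, with signals of 31.2 (rank 4010) at 1613 bp and 14.6 (rank 13409) at 1841 bp upstream. Replicate 1 had a single peak that overlapped both pooled peaks, with a signal of 30.0 (rank 4727). Its summit was 1775 bp upstream, nearer to the second pooled summit than to the first.

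The ligand gene mom-2 (chromosome V, 8355988 to 8358185, plus strand) and the scaffold genes were lower. Both scaffold genes are on chromosome I, pry-1 from 14172828 to 14179360 on the minus strand and apr-1 from 8050037 to 8055475 on the plus strand. At mom-2 the strongest pooled peak, with a signal of 48.9 (rank 5384), lay 153 bp upstream of mpdu-1, which is on the other strand 17 bp beyond the 3' end of mom-2, and at the start of mom-2 itself the signal was 23.3, 273 bp upstream. For pry-1 it was 40.2 (rank 7146), 399 bp upstream of its own 5' end, with 19.8 in replicate 1 (rank 8975) and 26.5 in replicate 2 (rank 5202). For apr-1 it was 29.5 (rank 11240), in an intron of the neighbour K04G2.7 1937 bp upstream of apr-1. In replicate 1 the strongest peak at apr-1 was at another place (19.6, rank 9181). No match to the motifs lay within 50 bp of the strongest pooled summit of any of the 5 uncalled genes. Over the whole pooled list 21.9% of summits had AATCGAT or AATCAAT within 50 bp and 2.37% had CTGCGTC. With shares this low, no match at 5 summits shows no difference from the list.

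**Figure D5:**
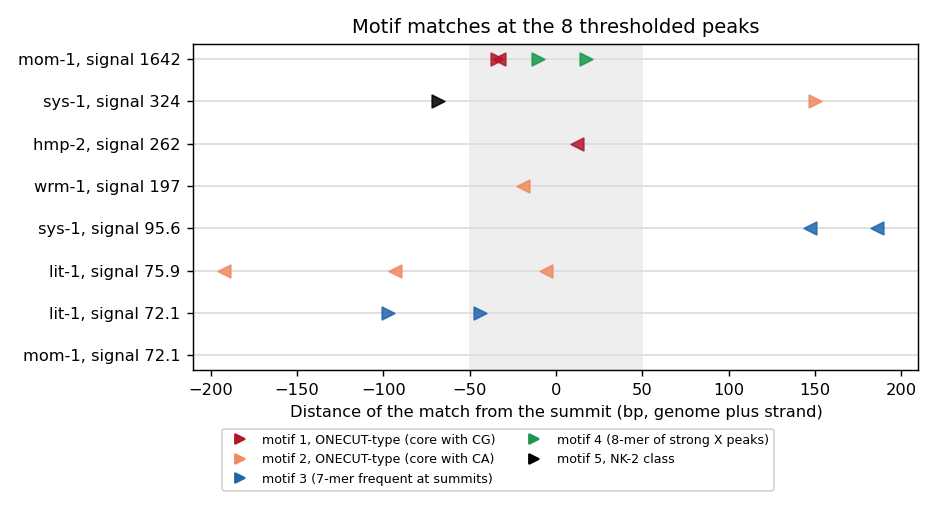
Matches within 200 bp of the 8 thresholded summits (x axis, distance from the summit in bp on the plus strand; rows from high to low signal). Arrowheads show the strand, the shaded band is 50 bp to each side, and motif 1 is AATCGAT, motif 2 is AATCAAT, motif 3 is CTGCGTC, motif 4 is GCGCAGGG and motif 5 is the NK-2 class sequences; the peaks of mom-1 (1642), hmp-2, wrm-1 and lit-1 (75.9) have motif 1 or 2 in the band.

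Across the 8 thresholded summits, 4 had AATCGAT or AATCAAT within 50 bp, against 47.4% of all thresholded summits and 12.2% of their flanking windows. These were the strong peak of mom-1 and the peaks of wrm-1 and hmp-2, and the 3' UTR peak of lit-1. The share is thus close to that of the whole list. In the flanking windows of these 8 summits, 3 of 16 had a match. The NK-2 class sequence lay within 50 bp of 0 of 8 summits, which allows a share of up to 37.5% at 3 counts of 8, and 1.30% of all thresholded summits had it, against 1.88% of flanking windows, so it was no more frequent at summits than beside them. The single copy within 200 bp was at the stronger sys-1 peak, 65 bp from the summit. In 6 of the 8 peaks the 101 bp at the summit had a G and C content from 49.5% to 54.5%, and the hmp-2 peak and the 3' UTR peak of lit-1 had 33.7%. The median over all thresholded summits was 38.6%, and 17.8% of them had 49.5% or more. The level of 49.5% was taken from these same 6 peaks, so this comparison is a description and no test.

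Other genes of the Wnt pathway were called at about the rate of all genes where window length is left aside. Of 39 such genes, with a median window of 7.85 kb, 8 had a thresholded peak (20.5%), against 22.5% of all protein-coding genes. With windows of 6 to 10 kb, 3 of 20 were called, against 24.6% of all genes of that size. With windows over 10 kb, 4 of 16 were called, against 38.1%, and these differences were not tested. A summit lay in a promoter window for 5 of the 39. The dishevelled genes, which pass the signal on from the receptors, had 2 of 3 called. mig-5 had the higher signal, 440 (rank 233), with its summit 169 bp upstream, and 232 in replicate 1 and 209.9 in replicate 2. dsh-2 had a signal of 165 (rank 1027), 291 bp upstream, with 72.4 in replicate 1 and 92.3 in replicate 2. The coactivator gene cbp-1 had 2 peaks, with signals of 320.0 and 223 at 925 bp and 186 bp upstream.

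No thresholded peak lay at the ligand or receptor genes, 0 of 4 and 0 of 6, and with 22.5% of all genes called, counts of 0 in groups this small show no difference from all genes. The ligand genes were lin-44, cwn-1, cwn-2 and egl-20, and the receptor genes were lin-17, mig-1, cfz-2, mom-5, lin-18 and cam-1. Of the 10 genes listed as transcriptional targets 1 was called, the Hox gene lin-39, with signals of 87.7 and 75.2. The stronger peak had ranks of 3256 in replicate 1 and 1997 in replicate 2. The weaker had 19.2 in replicate 1 (rank 9472) and 49.0 in replicate 2 (rank 1993). The remaining calls were weak or lay at neighbours. snx-3, of Wnt secretion, had a signal of 71.9 at its own start, with 54.0 in replicate 1 (rank 2052) and 17.5 in replicate 2 (rank 10064). At vang-1, of planar polarity, both peaks (114 and 67.5) lay at the 5' end of B0410.3, and at gsk-3, a kinase of the destruction complex, the peak (83.1) lay in an intron of nhx-8. jac-1, of the adherens junction, had one in its 3' UTR with a signal of 86.1. Not called were also mig-14, vps-35, dsh-1, prkl-1, fmi-1, axl-1, kin-19, mom-4, tap-1, unc-37, hmr-1, hmp-1, end-1, end-3, mab-5, egl-5, egl-18, elt-6, ceh-22, psa-3 and ceh-10.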

How the data were processed

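The ChIP-seq gave 2 biological replicates, grouped by the labels, with library fragments of 150 to 350 bp. Per the deposited file records, each relaxed list was made from 1 replicate or both and a control, and the thresholded list from these by the irreproducible discovery rate. For aligner and peak caller, names and versions were not given in the sources used. The signal and the −log10 q-value of each peak are used as deposited by the authors; 84.8% of thresholded peaks share the highest −log10 q-value, so peaks were ranked by signal. No read counts are given, so depth is unknown. All relaxed lists hold 30000 peaks, so their size carries no information. No p-value was computed. The shares printed are not corrected for window length.

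Coordinates are on ce11, counted from 1, with genes of Ensembl release 115 (WBcel235) and RefSeq sequence of the same assembly; 99.8% of first coding exons read there began with ATG. Peaks were counted by overlap of at least 1 bp. Annotated 5' ends can lie downstream of transcription starts, since many worm transcripts are trans-spliced. The members, motifs and gene lists were chosen with earlier results of these data known. The rule for naming genes took all 10 members and every called gene of the list of 39 others with values, the rest of that list by name, and further genes only where they were nearest to a peak or their windows held it. The counting was checked on simulated data. Tables were read with pandas 2.3.3 and numpy 2.4.6 under Python 3.11.15, ranks were correlated with scipy 1.17.1, and plots were drawn with matplotlib 3.10.9.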

Additional observations from a re-analysis of the deposited data

How the results depend on the processing

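The number of the 10 genes with a thresholded peak was 5, against 22.5% of all protein-coding genes. It was also 5 with flanks of 5000 bp, where the share of all genes was higher at 33.5%, with summits in place of intervals (21.8%), and with the peaks of 1 replicate alone (5 to 5 genes, 22.4% in replicate 1 and 22.3% in replicate 2). It was 4 above the median signal (12.1%). With flanks of 500 bp it was 3 (mom-1, sys-1 and lit-1, against 15.6%), since the peaks of wrm-1 and hmp-2 lie farther out. With no flanks it was 2 (mom-1 and lit-1, against 9.45%), since both peaks of sys-1 also lie outside the gene body. Genes with a summit in a promoter window were 4, against 11.2% of all genes. They were 5 with windows of 2000 bp upstream to 200 bp downstream (14.4%), 1 with 500 bp upstream to 100 bp downstream (sys-1; 8.80%) and 1 above the median signal (wrm-1; 5.67%). In 1 replicate alone they were 3 to 3, but not the same genes: mom-1 was lost in replicate 1 alone (11.0% of all genes) and lit-1 in replicate 2 alone (10.9%). Peaks strong in both replicates, 5 of 8, were 4 when the 1000 strongest of each replicate counted and 8 when the 10000 strongest did. Of all thresholded peaks 73.7% were strong in both under the main rule, and the share was not computed for the other settings. The thresholded list was made from both replicates, so these counts are a description only. The rank of the 3' UTR peak of lit-1, 2929, was 5610 in replicate 1 alone and 1980 in replicate 2 alone. Unknown depth limits what a missing peak at bar-1 or apr-1 shows. No paired analysis was possible because there is 1 group.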

Other observations

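Several other Wnt pathway genes without a thresholded peak lay just under the lowest thresholded signal of 65.9, and those given here were picked with their values in view. The strongest pooled peak in the window of tap-1, of the kinase cascade, had a signal of 64.1 (rank 3692). The best ranks in this window were 2527 in replicate 1 and 4143 in replicate 2. Replicate ranks given here are the best of the whole window and were not matched to the pooled peak by place. The strongest pooled peak of psa-3, a transcriptional target, had 63.0 (rank 3780), with ranks of 7022 in replicate 1 and 2941 in replicate 2. For lin-17, a Frizzled receptor gene, it had 62.4 (rank 3819), with 3625 in replicate 1 and 5860 in replicate 2. egl-18, of a GATA factor, had 57.4, with ranks of 3818 in replicate 1 and 3368 in replicate 2. hmr-1, the cadherin gene of the adherens junction, had 56.8, with 3908 in replicate 1 and 5168 in replicate 2. Its window, of 62.9 kb, was the longest of the 39 other genes, and a longer window can hold more peaks. Of the 31 other pathway genes without a thresholded peak, 6 had no pooled relaxed peak in their window either. These were lin-44, cwn-1, egl-20, prkl-1, fmi-1 and ceh-22, and the other 25 had strongest signals of at most 64.1. Windows without a relaxed peak are common. Of all protein-coding genes, 69.7% had at least 1 relaxed peak in replicate 1 and 72.3% in replicate 2. The share was not computed for the pooled list, so the 6 genes are only named.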
